A study of Mus musculus with 12 samples.

Results

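The autotaxin and lysophosphatidic acid (LPA) axis was represented by 8 genes of the 21307 with a symbol on the array. They were *Enpp2*, *Enpp1* and *Enpp3* of the ectonucleotide pyrophosphatase/phosphodiesterase (ENPP) family, the LPA receptor genes *Lpar1*, *Lpar2* and *Lpar3*, which the array lists as *Edg2*, *Edg4* and *Edg7*, and the phosphatase genes *Plpp1* and *Plpp3*, listed as *Ppap2a* and *Ppap2b*. They were chosen by name, for their place in the pathway, with earlier results of these data known. They had 13 probes, and 7 probes of 5 genes were detected, meaning that in some group none of the 3 arrays failed the scanner's test against local background. These 7 were well above background on all 12 arrays, and none of their spots was saturated. No probe of the other 3 genes was detected.

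Autotaxin, the product of *Enpp2*, is a secreted lysophospholipase D that cleaves lysophosphatidylcholine outside the cell and so makes LPA, a lipid that signals through G protein-coupled receptors on the same or neighbouring cells. Membrane phosphatases of the PLPP family, formerly called lipid phosphate phosphatases, remove the phosphate from LPA at the cell surface and end the signal. In the mammary gland the axis is known for effects on cell motility and, in transgenic mice that overexpress autotaxin or an LPA receptor in mammary epithelium, for tumour formation. The arrays measured mRNA, and neither the secreted enzyme nor LPA.

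C57MG, an established line of mouse mammary epithelial cells, was grown in serum with insulin, moved to plain DMEM after a night in 6-well plates, and treated for 24 h. There were 4 groups of 3 monolayers: BSA, the carrier protein, as control; recombinant human Rspo2 at 100 ng/ml; recombinant mouse Wnt3a at 100 ng/ml; and Rspo2 plus Wnt3a, each at 100 ng/ml. Rspo2 is a secreted protein that strengthens Wnt signaling, and Wnt3a is a ligand of the β-catenin pathway. All groups are thus 1 line in serum-free medium at 1 time, and each array carried the RNA of 1 monolayer.

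The 75th percentile of the intensity ranged from 773.9 to 1146 over the 12 arrays, and 51.3% to 64.2% of probes were well above background. Of 7 epithelial markers, *Krt8*, *Krt5* and *Krt14* were detected and *Krt18*, *Krt19*, *Cdh1* and *Epcam* were not, whereas 6 of 7 fibroblast or mesenchymal markers were detected, all but *Thy1*. The defining epithelial genes *Cdh1* and *Epcam* thus did not pass the detection rule in cells labelled epithelial. The arrays lay on 3 slides: BSA with Rspo2 replicate 1 on slide 1, Rspo2 replicates 2 and 3 with Wnt3a replicates 1 and 2 on slide 2, and Wnt3a replicate 3 with Rspo2 plus Wnt3a on slide 3. Wnt3a and the combination never shared a slide with BSA, which leaves these comparisons without a value from within a slide.

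*Enpp2* rose in response to Wnt3a and rose much further when Rspo2 was added. Its detected probe gave intensities of 79.4, 74.4 and 64.6 in the BSA replicates 1 to 3 and of 70.5, 39.7 and 33.2 with Rspo2. With Wnt3a alone the intensities were 122.4, 119.2 and 87.4. With Rspo2 plus Wnt3a they were 568.9, 598.1 and 726.8. The 3 arrays of the combination were far above the other 9, the Wnt3a arrays were above all BSA and Rspo2 arrays, and the BSA and Rspo2 arrays overlapped. The array annotates this probe to a RefSeq mRNA of *Enpp2*. The study lists a pair of qRT-PCR primers for the gene, shown here, 5′ to 3′, as its second means of measuring this mRNA. Where they lie relative to the probe was not examined.
Enpp2 forward primer: tctagcatcccagagcacct
Enpp2 reverse primer: cgtttgaaggcagggtacat

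To compare arrays, each intensity was put on the log2 scale and reduced by the 75th percentile of its array. On this scale the level of *Enpp2* was -3.86 ± 0.25 with BSA, -4.30 ± 0.39 with Rspo2, -2.93 ± 0.26 with Wnt3a and -0.65 ± 0.10 with both (mean ± SD, n = 3 arrays each). In limma, with p-values adjusted over all detected probes, the rise with the combination was 3.21 ± 0.20 (log2 change ± SE) over BSA, or 9.28-fold (95% interval of the log2 change 2.78 to 3.65, adjusted p = 1.25e-06). Wnt3a alone raised *Enpp2* 1.92-fold (log2 change 0.94 ± 0.20, adjusted p = 0.0058 in limma). The log2 change with Rspo2 alone was -0.44 ± 0.20, which did not pass (limma, adjusted p = 0.143). It passed without Rspo2 replicate 1, at -0.66 (limma, adjusted p = 0.033). Thus the order of the levels was Rspo2, BSA, Wnt3a and the combination, and only Rspo2 and BSA, next to each other in it, were not told apart.

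The addition of Rspo2 to Wnt3a raised *Enpp2* 4.85-fold (log2 change 2.28 ± 0.20, adjusted p = 9.53e-05 in limma). The interaction, which is the log2 change with both proteins less the sum of the changes with each alone, was 2.71 ± 0.28 (limma, adjusted p = 0.000718). The combination therefore exceeded the product of the separate fold changes. Within slide 3, the 3 combination arrays were higher than Wnt3a replicate 3 by 2.56 (log2), and within slide 2, Wnt3a was higher than Rspo2 by 1.74. Within slide 1, Rspo2 replicate 1 differed from the BSA mean by 0.01, so the low values of Rspo2 were those of the arrays on slide 2. When slide entered the fit as a term, *Enpp2* rose with the combination by 4.30 (limma, adjusted p = 0.000551) and with Wnt3a by 1.74 (limma, adjusted p = 0.0185). Here and below, BSA shared no slide with these groups, so such a fit only chains the differences within slides. The chain passes through single arrays, Rspo2 replicate 1 on slide 1 and Wnt3a replicate 3 on slide 3. It is therefore no separate estimate.

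How large the rise of *Enpp2* with the combination was, and whether it passed, varied with the background correction. When the signal was corrected by normexp in place of the scanner software's own correction, the change was 2.06 and no longer passed (limma, adjusted p = 0.06). Here and below, normexp adds 50 intensity units to each value, which narrows the fold changes of dim probes. How much of the smaller change came from this was not tested. On Rspo2 replicate 2 and BSA replicate 1 normexp turned *Enpp2* signals of 59.95 and 100.4 above local background into 1022.4 and 362.5. These were the arrays with the lowest spots of all, at -43449.1 and -7970.1 after subtraction of local background. With the 311 and 5 spots of high local background left out of the normexp fit on these arrays, and 2 on Rspo2 replicate 1, an alternative chosen after seeing the data, the change was 2.39 (limma, adjusted p = 5.27e-09). Across 27 alternatives with a test, the change with the combination kept its direction in 27 and passed in 26, and it passed without each of the 12 arrays in turn, at 3.12 to 3.36.

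**Figure D1:**
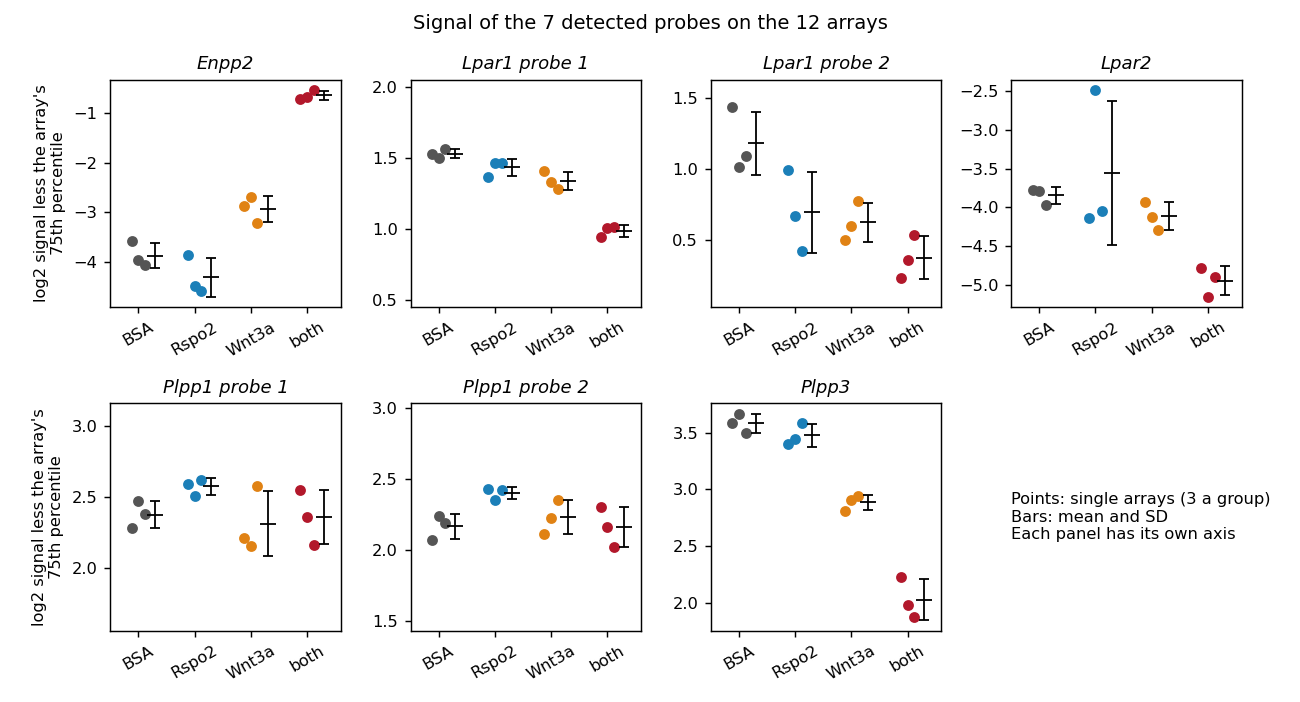
Signal of the 7 detected probes on each of the 12 arrays, as log2 intensity less the 75th percentile of the array, by treatment ("both" is Rspo2 plus Wnt3a). Points are single arrays and bars are mean and SD (n = 3); each panel has its own vertical axis. *Enpp2* lay between -0.73 and -0.54 with both proteins and at -2.70 or lower on all other arrays, *Plpp3* fell from 3.58 with BSA to 2.03 with both, and *Lpar2* had 1 high array among the 3 with Rspo2.

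A second *Enpp2* probe, designed on a cDNA clone, was not detected. Its intensities ran from 3.93 to 11.8 and were well above background on 0 of 12 arrays, the combination included. On the arrays the rise of *Enpp2* therefore rests on 1 probe, which had 1 value on each array. The paper also lists *Enpp2* among the known target genes whose array data it reports as borne out by qRT-PCR. Those qRT-PCR values are not given here. Whether the other probe lies on the transcript made by these cells was not tested.

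Because *Enpp2* is also abundant in adipocytes, a list of 5 adipocyte markers was set beside it. *Adipoq*, *Plin1*, *Lep* and *Cidec* were not detected. *Fabp4*, a fatty acid-binding protein and the member that was detected, fell with the combination by 0.81 on the log2 scale (limma, adjusted p = 0.000822). Its intensity, which is the whole sum of the list, was 503.2 to 532.3 with BSA and 248.8 to 308.5 with both proteins. Summed intensities here cover detected members and are not scaled between arrays. The summed intensity of the epithelial list was 9510 to 12150 with BSA and 23570 to 24190 with both, of which *Krt14*, a basal keratin, made 9378 to 11990 and 23480 to 24090. Its 3 detected members split: *Krt14* rose by 1.24 (limma, adjusted p = 8.28e-06), *Krt8*, a luminal keratin, fell by 1.15 (limma, adjusted p = 0.000366), and *Krt5* was at 0.22 (limma, adjusted p = 0.387). The *Krt8* and *Krt5* probes were dim, which limits this split. *Krt8* gave 86.1 to 97.7 with BSA and 33.8 to 43.7 with both. *Krt5* gave 46.3 to 64.2 and 55.6 to 72.6, and was well above background on 10 arrays. Of the 6 detected mesenchymal markers 3 fell and 0 rose, with *Pdgfra* at -1.37, *Col3a1* at -0.85 and *Pdgfrb* at -0.60 (limma, adjusted p = 8.77e-06, 0.00156 and 0.0015). Of all probes 17.3% fell and 21.9% rose with the combination at an adjusted p under 0.05, which is the share to set beside each marker list. The mesenchymal list's sum was 242000 to 293000 with BSA and 229200 to 257800 with both. Of 4 endothelial markers *Cdh5* was detected, and it fell by 0.55 with both (limma, adjusted p = 0.000259), by 0.49 with Wnt3a and by 0.41 with Rspo2. Its intensity, again the whole sum of the list, went from 2281 to 2948 with BSA to 1504 to 1813 with both. Of the 3 detected of 4 leukocyte markers 0 passed with both, where 39.2% of all probes did. Their list's sum was 344.2 to 452.9 with BSA and 332.4 to 385.9 with both. The part of these shifts in the results was not tested, and in bulk RNA a change in the share of cells that express a gene cannot be told apart from a change per cell.

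The other ENPP genes were below detection. Enpp1 makes inorganic pyrophosphate from nucleotide triphosphates, and Enpp3 is an ectoenzyme that cleaves nucleotides. The *Enpp1* probe was well above background on 1 of 12 arrays, with intensities from 5.14 to 31.6. The 3 probes of *Enpp3* were above background on 1, 0 and 0 arrays, with intensities of at most 44.2. No fold change is given for them. Of the 4 other family members on the fixed list, *Enpp5*, *Enpp6* and *Enpp7* were not detected either. *Enpp4* was detected, and its change with the combination was 0.05 (log2; limma, adjusted p = 0.789).

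Among the receptors, *Lpar1* was read by a pair of probes on the same mRNA. The brighter probe gave 2733, 3236 and 3186 with BSA and 2627, 2428 and 2190 with Rspo2. It gave 2384, 1942 and 1959 with Wnt3a and 1804, 1926 and 2134 with both. After scaling, the arrays of the combination were below all others, and those of Rspo2 and of Wnt3a were below BSA without overlap. Neither single change passed (limma, adjusted p = 0.345 and 0.0564), and the share of all probes without such overlap was not counted. *Lpar1* fell with the combination by 0.54 ± 0.07 on the log2 scale by the brighter probe (limma, adjusted p = 0.000189) and by 0.80 ± 0.16 by the dimmer one (limma, adjusted p = 0.00262). These are 1.46-fold and 1.75-fold, short of the 2-fold that was required for a call.

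The 2 probes of *Lpar1* differed in the single treatments. The dimmer probe gave 2566, 2305 and 2298 with BSA, 2026, 1392 and 1062 with Rspo2, 1269, 1168 and 1372 with Wnt3a, and 1103, 1226 and 1532 with both. With Wnt3a it fell by 0.56 (limma, adjusted p = 0.0219), and its change with Rspo2 was -0.48 (limma, adjusted p = 0.0575). By the brighter probe the changes were -0.19 (limma, adjusted p = 0.0564) and -0.10 (limma, adjusted p = 0.345). The further step from Wnt3a to the combination passed by the brighter probe, which fell by 0.35 (limma, adjusted p = 0.0143), and was -0.25 by the dimmer one (limma, adjusted p = 0.44). Leaving out 1 array changed several of these calls. The dimmer probe's fall with Wnt3a did not pass without BSA replicate 1, Wnt3a replicate 1 or Wnt3a replicate 2, at -0.54 to -0.43 (limma, adjusted p from 0.0634 to 0.0807), and its change with Rspo2 passed without Rspo2 replicate 1, at -0.63 (limma, adjusted p = 0.0275). The brighter probe's further step did not pass without Wnt3a replicate 1 or without replicate 1 or 2 of the combination, at -0.36 to -0.32 (limma, adjusted p from 0.0516 to 0.0615). Neither fall with the combination passed once slide was added to the fit, at -0.56 and -0.58 (limma, adjusted p = 0.112 and 0.422).

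*Lpar2* was read by 1 dim probe. Intensities were 69.6, 82.7 and 69.2 with BSA, and 58.0, 156.2 and 48.2 with Rspo2. They were 59.0, 44.4 and 41.4 with Wnt3a, and 34.4, 27.1 and 35.5 with both. The combination was below all other arrays, and Rspo2 replicate 2 stood apart as the highest of the 12. On that array the local background at the *Lpar2* spot was 189, against 67 to 73.5 on the other 11 arrays.

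*Lpar2* fell with the combination by 1.09 ± 0.34 on the log2 scale, or 2.13-fold (limma, adjusted p = 0.0276). The change was -1.71 once slide was added to the fit (limma, adjusted p = 0.322). That value takes in a difference of -0.76 between Wnt3a and Rspo2 on slide 2, which includes the high spot of Rspo2 replicate 2. By normexp fitted without spots of high background the change was -0.40 (limma, adjusted p = 0.00833), which is less than 2-fold. It did not pass by the planned normexp (-0.75, limma, adjusted p = 0.474), after quantile normalization (-0.89, limma, adjusted p = 0.0784) or without the filter on dim probes (limma, adjusted p = 0.0728), and it passed in 16 of 27 alternatives. The 50 intensity units that normexp adds narrow the change of a probe this dim, by an amount that was not tested. Without Rspo2 replicate 2 the adjusted p in limma was 0.000175 at a change of -1.09. Leaving out any 1 of the BSA or combination arrays gave -0.99 to -1.18 with adjusted p between 0.0506 and 0.0905 in limma.

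*Lpar3* was not detected: its intensities ran from 3.08 to 20.4, and 0 of 12 arrays were well above background. Of the receptors outside the 8 genes, *Lpar4* was not detected either. *Lpar6*, a further LPA receptor, rose by 0.30 with the combination (limma, adjusted p = 0.0195). The change of each receptor mRNA was smaller than the rise of *Enpp2*.

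Of the phosphatases, *Plpp3* fell with Wnt3a and fell further with the combination. The intensities were 11440, 14540 and 12220 with BSA and 10760, 9550 and 9536 with Rspo2. They were 6292, 5813 and 6177 with Wnt3a, and 4423, 3785 and 3879 with Rspo2 plus Wnt3a. The combination lay below Wnt3a and Wnt3a below BSA and Rspo2, without overlap. On the log2 scale the levels were 3.58 ± 0.08 with BSA, 3.48 ± 0.10 with Rspo2, 2.88 ± 0.07 with Wnt3a and 2.03 ± 0.18 with both (mean ± SD, n = 3).

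The combination lowered *Plpp3* 2.94-fold, and the log2 level fell by 1.56 ± 0.10 (limma, adjusted p = 1.88e-06). Wnt3a alone lowered it 1.62-fold, with a fall by 0.70 ± 0.10 (limma, adjusted p = 0.00119), and the change with Rspo2 alone was -0.11 ± 0.10 (limma, adjusted p = 0.472). Adding Rspo2 to Wnt3a lowered it by a further 1.81-fold (log2 change -0.86, limma, adjusted p = 0.000754). The interaction was -0.75 ± 0.14 (limma, adjusted p = 0.0153), so the fall too exceeded what the separate changes add up to. Within slides, the difference was -0.91 between the combination and Wnt3a replicate 3, and -0.66 between Wnt3a and Rspo2. The fall with the combination passed in 27 of 27 alternatives, from -1.75 to -1.47, while with slide as a term the fall with Wnt3a alone and the interaction did not pass, at -0.84 and -0.72 (limma, adjusted p = 0.103 and 0.175). By the planned normexp the fall with Wnt3a, the further step and the interaction did not pass, at -0.71, -0.76 and -0.43 (limma, adjusted p = 0.156, 0.556 and 0.914), and without the filter on dim probes the interaction did not (limma, adjusted p = 0.0729). The planned normexp is the fit described above that raised signals on Rspo2 replicate 2 and BSA replicate 1. Among all alternatives with a test, the fall with Wnt3a and the further step each passed in 25 of 27, and the interaction in 21 of 24.

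**Figure D2:**
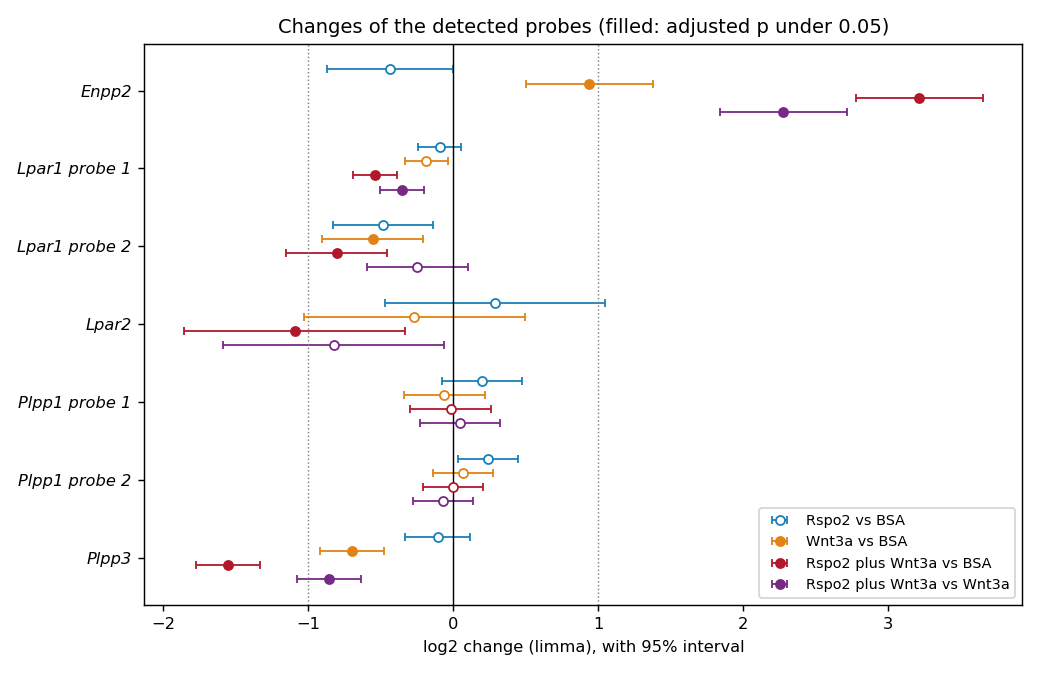
Log2 change of each detected probe (limma) with its 95% interval, for each treatment against BSA and for Rspo2 plus Wnt3a against Wnt3a; filled points passed an adjusted p of 0.05 and dotted lines mark 2-fold. *Enpp2* stands alone on the right, at 3.21 with both proteins, and *Plpp3* farthest to the left, at -1.56.

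The other phosphatase, *Plpp1*, did not pass in any comparison. Its brighter probe gave 4617, 6354 and 5628 with BSA, 6174, 5003 and 4883 with Rspo2, 4157, 3445 and 4800 with Wnt3a, and 5513, 4930 and 4746 with both. The second probe ran from 3633 to 5519. The log2 change with the combination was -0.02 by the first (95% interval -0.30 to 0.26) and -0.005 by the second (-0.21 to 0.20), so a change of 2-fold lies outside both intervals. *Plpp1* and *Plpp3* encode enzymes with the same activity, and the second was the one whose mRNA responded.

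Because a level on 1 array shares its scaling with all others, *Enpp2* and *Plpp3* were also set against each other on the same array, as the change of *Enpp2* less that of *Plpp3* from their BSA means. With the combination this was 4.49, 4.79 and 5.03 (log2) on replicates 1 to 3, and with Wnt3a 1.76, 1.84 and 1.31. With Rspo2 it was 0.19, -0.46 and -0.72, and with BSA -0.16 to 0.28. The mRNAs of *Enpp2* and *Plpp3*, the members with the largest rise and the largest fall with the combination, thus moved apart on every array with Wnt3a, and most where Rspo2 was present too. They were paired after these changes were seen, and the changes of *Plpp1*, *Plpp2* and *Acp6*, phosphatase genes too, were -0.02, 0.23 and 0.56 with the combination.

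The 250 bases before the start of *Plpp3*, the member with the largest fall, and before those of *Lpar1*, the member with matches to the motif searched, are shown from RefSeq (build GRCm38.p6), 5′ to 3′ on the strand of the gene. The capitals mark matches to CTTTG followed by AA, AT, TA or TT, forms of the core site bound by TCF/LEF factors, searched on both strands with overlaps allowed. Of 3 listed starts of *Lpar1*, those with a match are given. Entries were found for 6 of the 8 genes, with 8 starts, and the starts of *Enpp2* and *Plpp1* were not analysed here.
Plpp3, chr4:105157097-105157346, plus strand: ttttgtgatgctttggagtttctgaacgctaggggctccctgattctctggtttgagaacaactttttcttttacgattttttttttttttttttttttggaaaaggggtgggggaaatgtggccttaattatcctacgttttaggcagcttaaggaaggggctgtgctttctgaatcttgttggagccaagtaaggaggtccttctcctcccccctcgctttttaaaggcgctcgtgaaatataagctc
Lpar1, chr4:58499404-58499653, minus strand: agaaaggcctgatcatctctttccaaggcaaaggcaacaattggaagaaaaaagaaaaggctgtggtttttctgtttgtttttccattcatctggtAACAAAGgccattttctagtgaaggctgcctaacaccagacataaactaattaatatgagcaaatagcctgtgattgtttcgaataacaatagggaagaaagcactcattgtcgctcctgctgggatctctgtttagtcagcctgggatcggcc
Lpar1, chr4:58553294-58553543, minus strand: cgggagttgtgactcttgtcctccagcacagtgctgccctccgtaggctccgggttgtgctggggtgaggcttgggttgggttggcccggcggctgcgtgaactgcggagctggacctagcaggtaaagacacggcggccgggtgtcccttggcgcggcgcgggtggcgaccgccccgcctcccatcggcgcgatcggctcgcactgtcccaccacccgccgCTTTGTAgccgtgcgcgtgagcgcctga
The window of *Plpp3* held no match, nor did that of *Lpar2*, which also fell. The match in the first *Lpar1* window was on the opposite strand and began 154 bases before the start, and that in the second began 28 bases before it. Of the 8 starts 2 held a match, against 14.8% of the 32851 starts in the table. A match describes the letters of the window and no binding was measured.

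Counted by gene, each by its brightest detected probe, 3 of the 5 detected members were called changed with Rspo2 plus Wnt3a, at an adjusted p under 0.05 and at least 2-fold. *Enpp2* was higher and *Plpp3* and *Lpar2* were lower. Of all 22751 probes tested, 5.08% were called in this comparison, 1.28% as higher and 3.79% as lower. The members were chosen with earlier results of these data known, and the paper already lists *Enpp2* as a target on these arrays. The count is therefore a description only. With Rspo2 alone 0 members were called, against 0.721% of all probes, and with Wnt3a alone 0, against 2.52%. At an adjusted p under 0.05 whatever the size, the members that passed were 0 with Rspo2, 2 with Wnt3a (*Enpp2* and *Plpp3*) and 4 with both (these and both receptors), against 16.8%, 31.5% and 39.2% of all probes. At an unadjusted p under 0.05 in limma and 2-fold the counts with Rspo2 and with Wnt3a were again 0, and they were 0 by the methods' t-test, adjusted or not. Without the 2-fold requirement, 1 member had an unadjusted p under 0.05 with Rspo2, which was *Enpp2*, and 3 with Wnt3a. The median change of the 5 with the combination was -0.54, against 0.04 over all probes.

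Against Wnt3a, the combination changed 1 member by at least 2-fold, *Enpp2*, against 0.747% of all probes, and 3 passed the adjusted p alone (*Enpp2*, *Plpp3* and *Lpar1*), against 4.27%. Against Rspo2 it changed 3 (*Enpp2*, *Plpp3* and *Lpar2*), against 2.67%. The call of *Lpar2* there, at -1.38 (limma, adjusted p = 0.0201), rested on Rspo2 replicate 2, without which the change was -0.85, under 2-fold (limma, adjusted p = 0.00338), and it did not pass without replicate 2 or replicate 3 of the combination (limma, adjusted p = 0.078 and 0.0563). Wnt3a against Rspo2 changed 1, *Enpp2*, which was 2.59-fold higher (limma, adjusted p = 0.00839), against 0.202%. The interaction was called for 1, *Enpp2*, against 1.93%, and passed the adjusted p alone for 2 (*Enpp2* and *Plpp3*), against 8.9%. These comparisons share arrays, and their counts are not independent.

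A wider set of 64 genes around the axis was then examined in 7 lists, of which 61 genes were on the array and 47 were detected. With the combination 9 of the 47 rose and 8 fell at an adjusted p under 0.05, against 21.9% and 17.3% of all probes, and 1 in each direction reached 2-fold. The median change was 0.05, next to 0.04 over all probes, so the set as a whole did not shift. With Rspo2 alone 6 rose and 2 fell, against 10.9% and 5.92% of all probes. With Wnt3a alone 7 rose and 5 fell, against 18.3% and 13.2%.

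The gene that rose at least 2-fold was *Pla1a*, a phospholipase that acts on phosphatidylserine and can yield 2-acyl lysophospholipid. Its intensities were 705.3, 789.7 and 752.7 with BSA, 757.3, 733.2 and 607.1 with Rspo2, 1099, 1002 and 947.9 with Wnt3a, and 1761, 1779 and 1988 with both. The combination lay above Wnt3a, and Wnt3a above the rest. The rise with both was 2.64-fold (log2 change 1.40 ± 0.07, limma, adjusted p = 4.59e-07), and with Wnt3a 1.74-fold (limma, adjusted p = 0.000103). Among the 13 detected genes of LPA and phosphatidic acid synthesis 4 rose and 1 fell with the combination, where 21.9% of all probes rose and 17.3% fell. *Agpat4*, an acyltransferase that turns LPA into phosphatidic acid, rose by 0.64 (limma, adjusted p = 0.000423). *Agpat5* and *Agk*, the latter a kinase that makes LPA from monoacylglycerol, rose by 0.32 and 0.35 (limma, adjusted p = 0.0077 and 0.00848). *Gpam*, which makes LPA inside the cell from glycerol 3-phosphate, fell by 0.37 (limma, adjusted p = 0.0132). Its probe was dim, at 89.1 to 99.8 with BSA and 64.5 to 70.2 with both.

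The gene that fell at least 2-fold was *Sphk1*, the kinase that makes sphingosine 1-phosphate, a lipid mediator related to LPA. Its intensities were 7822, 9852 and 8712 with BSA, 7765, 6681 and 5717 with Rspo2, 5026, 4490 and 4706 with Wnt3a, and 3748, 3789 and 4221 with both. The levels after scaling fell in the order BSA, Rspo2, Wnt3a and the combination, without overlap between any of them. The fall with both was 2.09-fold (log2 change -1.06 ± 0.06, limma, adjusted p = 1.03e-06), and with Wnt3a 1.44-fold (limma, adjusted p = 0.00045). Of the 7 detected genes of this axis 3 fell and 0 rose with the combination, beside 17.3% and 21.9% of all probes. *S1pr1*, a receptor, fell by 0.82 (limma, adjusted p = 0.000282), and *Sgpp2*, a phosphatase of sphingosine 1-phosphate, fell by 0.56 (limma, adjusted p = 0.00794). Both probes were dim, and their changes were not followed over the alternatives. *S1pr1* gave intensities of 51.4 to 65.9 with BSA and 25.9 to 34.0 with both, and *Sgpp2* 69.4 to 85.2 and 42.1 to 59.6.

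In the list of LPA and lipid phosphate breakdown 1 of 5 detected genes passed with the combination, a share below the 39.2% of all probes. This was *Acp6*, an LPA phosphatase of mitochondria, which rose by 0.56 (limma, adjusted p = 0.000238). *Plpp2*, the third phosphatase of the PLPP family, changed by 0.23 (limma, adjusted p = 0.271). Of 5 detected retinoic acid receptor genes 1 rose and 2 fell with the combination, beside 21.9% and 17.3% of all probes. *Rarb* rose by 0.55 (limma, adjusted p = 0.000857), and *Rara* and *Rxra* fell by 0.59 each (limma, adjusted p = 0.00272 and 0.00561). The *Rarb* probe was dim, at 90.8 to 96.9 with BSA and 122.9 to 133.8 with both. Except *Pla1a* and *Sphk1*, the genes named from these lists were chosen after their values were seen.

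**Figure D3:**
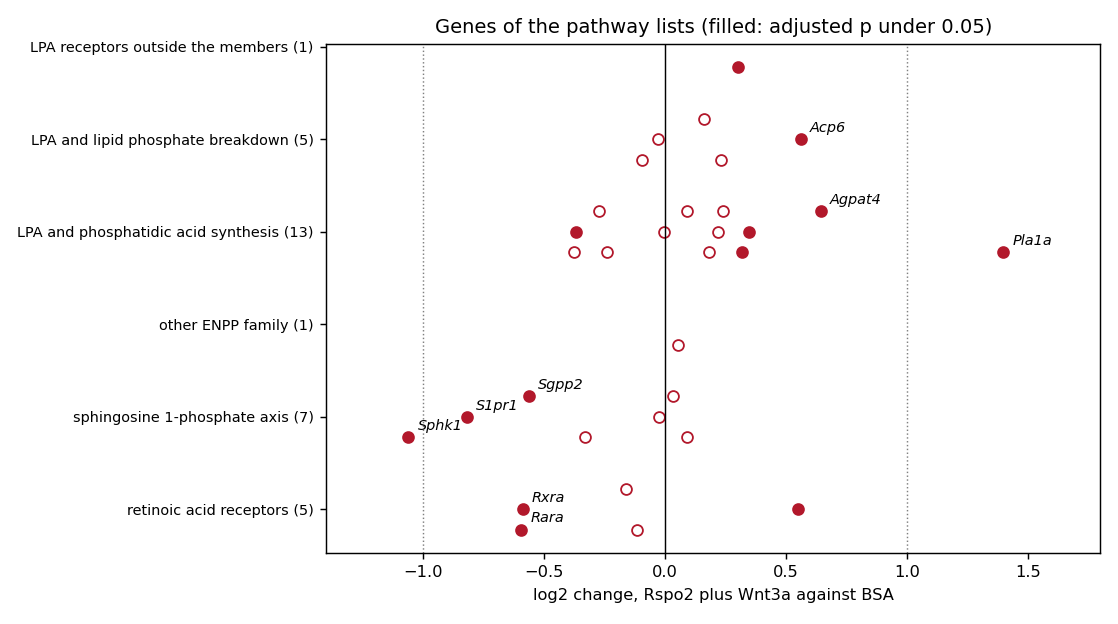
Log2 change with Rspo2 plus Wnt3a against BSA of 32 detected genes in 6 of the 7 pathway lists, 1 point a gene, with the number of detected genes of each list in parentheses; points are spread vertically within a list for sight only. Filled points passed an adjusted p of 0.05 (limma), dotted lines mark 2-fold, and most genes lie within 0.5 of 0. *Pla1a*, at 1.40, and *Sphk1*, at -1.06, are the points beyond 2-fold.

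To see which genes shared the profile of *Enpp2*, the changes from the BSA mean were compared over the 12 arrays, for 20407 probes that were well above background on all of them. The nearest 5 genes by root mean square difference were *Ahr* (0.356), *Rhou* (0.392), *Tcf7* (0.479), *Lypd2* (0.536) and *Rapgef3* (0.594). Ahr is the aryl hydrocarbon receptor, Tcf7 a TCF/LEF transcription factor and Rapgef3 an exchange factor activated by cyclic AMP. With the combination *Rhou* was higher by 3.68, *Ahr* by 2.86, *Tcf7* by 2.57, *Lypd2* by 2.44 and *Rapgef3* by 2.27 (log2 change against BSA). With Wnt3a alone their changes were 0.68 to 1.43, around the 0.94 of *Enpp2*, and with Rspo2 alone -0.12 to 0.12. This measure is a description of 12 arrays of 4 groups, and the arrays are shared by all genes.

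**Figure D4:**
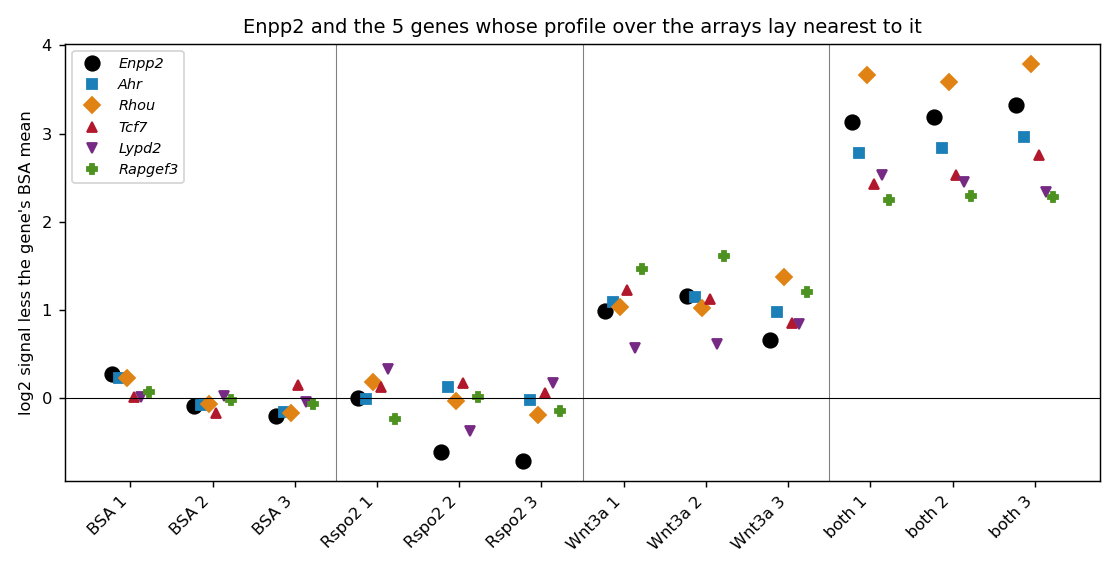
Log2 signal less the BSA mean of each gene on each of the 12 arrays (number after the group is the replicate; "both" is Rspo2 plus Wnt3a), for *Enpp2* and the 5 genes with the smallest root mean square difference from it. With BSA all 6 lie between -0.20 and 0.28, and with both proteins their mean changes run from 2.27 to 3.68, and *Enpp2* is the lowest of them on Rspo2 replicates 2 and 3.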

How the data were processed

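Single-color arrays of 12 monolayers were used. The deposited intensity values were made by the authors with Agilent Feature Extraction 9.5.3.1, per the labels, with background subtracted and without scaling between arrays. The authors' value table holds deposited ratio values, each signal over the 75th percentile of its array, and was used as an alternative. Spots marked uneven or outlying were left out (1327 of 520548 values, 0 of members), spots of a probe were averaged, and log2 values were reduced by the array's 75th percentile. A probe was detected when well above background on all 3 arrays of a group (for repeated spots, on 0.5 of them). Names came from accessions (22951 probes) through the GRCm38.p6 table, otherwise from the files. The build of the probe coordinates was not given in the sources used here, so none is printed. Another probe, under a RIKEN name that is a synonym of *Enpp1*, was below background on all arrays and was not counted.

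All 4 groups entered 1 limma 3.58.1 model (R 4.3.3), with 2.74 prior degrees of freedom and Benjamini-Hochberg adjustment over 22751 probes. It was also run on simulated independent arrays with known changes. These held no slide effect and no spots of high background, so the run says nothing about either. A call needed an adjusted p under 0.05 and 2-fold. Exact permutation of 3 arrays against 3 cannot go below 0.1 and was not used. The monolayers were treated as replicates, so p-values measure the spread between them. The number of arrays limits the precision. Named were all members, genes of the lists called against BSA, and the 5 genes nearest to *Enpp2*. Members and lists were chosen with earlier results of these data known. Alternatives covered background correction, scaling, filters, flags, slide, replicate block, the methods' t-test, the call rule and leaving out each array. Figures were drawn with matplotlib 3.10.9. Of the 7 pathway lists, 1 is not reported here on its own.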

Additional observations from a re-analysis of the deposited data

Results flagged for a closer look

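The effect of Rspo2 differed between cells without and with Wnt3a for 2 members and 2 genes of the pathway lists among those named by rule, by the interaction term of the limma model. The 5 genes nearest to *Enpp2* were chosen for sharing its profile and are not counted here. The interaction was 2.71 for *Enpp2* (log2 scale, limma, adjusted p = 0.000718) and -0.75 for *Plpp3* (limma, adjusted p = 0.0153). It was 0.47 for *Pla1a* (limma, adjusted p = 0.0253) and -0.38 for *Sphk1* (limma, adjusted p = 0.0302). In each the change with both proteins went in the direction of Wnt3a alone and exceeded the sum of the single changes. *Pla1a* and *Sphk1* were named for a change of at least 2-fold with the combination, whose level also enters the interaction. Their interactions are therefore a description only.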

How the results depend on the processing

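The background correction and the slide term each changed several results. By normexp, 1 member was called with the combination against BSA, 0 against Wnt3a and 1 against Rspo2, 0 were called for Wnt3a against Rspo2 and 0 for the interaction, and 1 gene of the pathway lists was called. *Enpp2* then changed by 0.41 with Rspo2, 0.33 with Wnt3a and 2.06 with both against BSA (log2), by 1.73 for the combination against Wnt3a, 1.65 against Rspo2 and -0.078 for Wnt3a against Rspo2, and its interaction was 1.32; none passed. *Plpp1* changed by 0.065 and 0.024 by its 2 probes, against -0.02 and -0.005. With normexp fitted without spots of high background, 0 members were called for Wnt3a against Rspo2.

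For Wnt3a against BSA, 1 member, against 0, was called after quantile normalization, in the authors' value table, and with slide as a term or as a random block. The change of *Enpp2* with Rspo2 was 0.006 with slide as a term and 0.006 within slide 1, against -0.44. Both of the former rest on the same Rspo2 array, replicate 1. Within slide 2, Wnt3a exceeded Rspo2 by 1.74 and within slide 3 the combination exceeded Wnt3a replicate 3 by 2.56, against 1.38 and 2.28. For Wnt3a against Rspo2, 0 members were called with no filter on dim probes, with only the 2 groups in the fit, or by the methods' t-test after adjustment, where *Enpp2* was at 1.38 (adjusted p = 0.0502 and 0.0724 in limma, and 0.518). By that t-test, which is not limma's, 0 members were called for the combination against Wnt3a and 1 against Rspo2, with *Enpp2* at 2.28 and 3.65, and it did not pass with Wnt3a against BSA, at 0.94. Without the 2-fold requirement, 2 members passed with Wnt3a against BSA, 3 with the combination against Wnt3a, 2 with Wnt3a against Rspo2, 2 by the interaction, and 17 genes of the lists. The cause of these differences was not tested, beyond the larger number of probes without the filter and the smaller number of arrays with 2 groups.

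Leaving out 1 array gave 0 to 1 members called with Wnt3a against BSA (1 without BSA replicate 1 or Wnt3a replicate 3), and 2 to 3 with the combination against BSA or Rspo2. The change of *Enpp2* with Rspo2 ran from -0.66 to -0.30, and that of *Plpp1* with the combination from -0.113 to 0.079 and from -0.074 to 0.067. Same-numbered replicates showed no common deviation beyond that of other pairs. Their correlations over probes ran from -0.41 to 0.27, and those of different-numbered replicates from -0.399 to 0.425. The numbers were therefore not used to pair samples in the main fit, though so few arrays cannot settle whether they share a batch. With the replicate block no count of calls changed and *Enpp2* was at 3.21 with the combination (limma, adjusted p = 9.49e-06), while the step of the brighter *Lpar1* probe from Wnt3a to the combination (-0.35, limma, adjusted p = 0.0575) and the difference of *Plpp3* between Wnt3a and Rspo2 (-0.59, limma, adjusted p = 0.0652) no longer passed. The detected probes of *Enpp2* and *Lpar2* were dim, with intensities down to 33.2 and 27.1, and whether this set how far their changes moved between settings was not tested.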

Other observations

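The interaction also passed in other genes of the pathway lists, of which 4 are given, chosen after their values were seen. It was positive for *Rarb* (0.51, limma, adjusted p = 0.0338) and *Acp6* (0.38, limma, adjusted p = 0.0451). It was negative for *S1pr1* (-0.82, limma, adjusted p = 0.0147) and *Sgpp2* (-0.90, limma, adjusted p = 0.023). For *Sgpp2* the signs of the single changes differed, with 0.44 for Rspo2 and -0.11 for Wnt3a. The probes of *Rarb*, *S1pr1* and *Sgpp2* were dim. Of all probes tested, 8.9% had an interaction at an adjusted p under 0.05, and of the 47 list genes 8 did.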
